A study of Mus musculus with 6 samples.

Results

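36 genes of the Hippo signalling pathway and of its transcriptional output were followed in the kidneys of young mice of a line with a conditional allele of Pals1. A gene counted as measured where the platform annotation gave a row of the deposited table its symbol and no other, and a gene with several rows was read from its brightest one. By this rule 35 of 36 members were found among 22180 measured genes: 24 of 25 core genes and 11 of 11 target genes. The missing core gene, Stk3, was not analysed here. Kidney RNA of mice at 4 weeks, without special treatment, was measured on 6 arrays, 3 labelled Cre-negative and 3 labelled Cre-positive. The labels describe a conditional knockout of Pals1/Mpp5 on a "C56Bl/6" background and Six2-Cre transgenic mice of mixed background, and they give these strains for both groups. The Six2 promoter drives Cre in the embryonic cells that form the nephron, while collecting ducts, stroma and vessels arise from other precursors. How many Mpp5 alleles were conditional in each mouse is not given in the sources used here, and the series title speaks of haplo-insufficiency. Pals1 is a scaffold of the Crumbs complex, which sets the apical side of epithelial cells.

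The Hippo pathway is a kinase cascade. Stk3 and Stk4 (MST kinases) with the scaffold Sav1 activate Lats1 and Lats2, which act with Mob1a and Mob1b and phosphorylate the co-activators YAP (Yap1) and TAZ (Wwtr1), keeping them in the cytoplasm. Unphosphorylated YAP and TAZ enter the nucleus and bind TEAD transcription factors at target genes such as Ccn1, Ccn2 and Ankrd1. Cell polarity feeds into the cascade, since the Crumbs complex, Nf2, Wwc1 and the angiomotins hold its components at apical junctions. Much of this control acts on protein location and phosphorylation, which arrays do not measure.

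The target genes and the core genes were counted apart, and the lists were not tested against each other. Of 11 target genes 7 rose in Cre-positive kidneys and none fell, with a median difference of 1.01 on the log2 scale. Of 24 core genes 9 rose and none fell, with a median difference of 0.15. Over all 22180 genes 21.8% were called, 10.7% higher and 11.1% lower, and the median difference was -0.012. The shares called among the members were 63.6% of the targets and 37.5% of the core. At an unadjusted limma p under 0.05 19 members were higher and 0 lower, beside 16.5% of all genes higher and 17.0% lower. The groups did not overlap in 20 members, among them Mob1b and Dock5 with lower Cre-positive values, and in 38.5% of all genes, 18.6% with Cre-positive arrays higher. With all 6 arrays, the rises within the core lay in the co-activators and TEAD partners (5 of 8) and in the upstream regulators (3 of 10). Of the kinase cassette 1 of 6 genes rose. A gene was called where limma's adjusted p, over all genes, was under 0.05. Differences are Cre-positive minus Cre-negative on the log2 scale, ± SE of limma's model for 3 arrays in each group, and adjusted p-values are limma's. With 3 arrays against 3, an exact permutation test of a single gene cannot give a two-sided p below 0.1, and all 16 called members reached that value, since their groups did not overlap. The number of arrays limits the precision. No label states that every sample is its own mouse, so the p-values measure the spread between samples, which may be technical in part.

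Several arrays stood apart in ways the labels do not give. Mpp5 itself, the check of the labels, was at 8.66, 8.69 and 8.78 in Cre-negative and at 8.04, 8.06 and 8.20 in Cre-positive arrays (-0.61 ± 0.09, limma adjusted p = 0.00232). Xist and Y-linked transcripts marked 2 of 3 Cre-negative and 0 of 3 Cre-positive arrays as female. The Cre-negative arrays thus did not all come from the same mouse. Cre-negative replicate 2 carried transcripts of the adrenal cortex (Cyp11b1 at 11.10 against 3.85 to 4.24 elsewhere), and Cre-positive replicate 2 carried those of skeletal muscle (Myh4 at 7.72 against 3.93 to 4.86). Results are therefore also given with sex as a second factor and without replicate 2 of both groups. With sex as a factor the difference is estimated against the single male Cre-negative array, so its error is larger and fewer genes of the whole table were called, 9.15% of all genes. Without replicate 2 of both groups 8.35% of all genes were called. In either refit 2 of 8 co-activators and TEAD partners, 2 of 10 upstream regulators and 0 of 6 kinase cassette genes rose. The larger count of the co-activators and TEAD partners was thus not kept. Their median difference was 0.49 in both refits. That of the upstream regulators was 0.27 with sex and 0.31 without replicate 2, and that of the kinase cassette 0.093 and 0.070. Whole kidney RNA was measured, so fewer cells of a type and less RNA per cell cannot be told apart.

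Among the upstream regulators and scaffolds 3 of 10 rose and none fell. Ajuba, a LIM-domain protein that binds and restrains LATS kinases, was at 7.76, 7.89 and 7.63 in the Cre-negative arrays and at 8.30, 8.47 and 8.60 in the Cre-positive arrays. Every Cre-positive value lay above every Cre-negative value, a rise of 1.62-fold (0.70 ± 0.11, limma adjusted p = 0.00383). Ptpn14, a phosphatase that binds YAP and retains it outside the nucleus, stood at 8.83, 8.86 and 8.66 against 9.34, 9.29 and 9.33. Its Cre-positive arrays were close together, all above the Cre-negative ones, and the rise was 1.46-fold (0.54 ± 0.09, limma adjusted p = 0.00417). Wwc1 encodes KIBRA, a junctional partner of Nf2. Its values were 9.10, 8.82 and 8.66 against 9.30, 9.25 and 9.23, so that Cre-negative replicate 1 came close to the Cre-positive arrays. The rise of Wwc1 was 1.32-fold (0.40 ± 0.12) and only just passed (limma adjusted p = 0.0490). It did not pass without Cre-negative replicate 2 or 3 or any 1 of the Cre-positive arrays, with adjusted p = 0.0790 to 0.142. The Wwc1 call was also lost with sex as a second factor (limma adjusted p = 0.0530) and without replicate 2 of both groups (limma adjusted p = 0.256). The calls of Ajuba and Ptpn14 were kept without any 1 array, with sex as a second factor (limma adjusted p = 0.0226 and 0.0189) and without replicate 2 of both groups (limma adjusted p = 0.0381 and 0.0441).

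The angiomotins Amot, Amotl1 and Amotl2 are junctional scaffolds that bind YAP and TAZ and are also found with Pals1 and its partner Patj. None passed the test. Amot was at 7.93, 7.85 and 8.01 against 8.17, 8.21 and 8.51, and Amotl2 at 7.48, 7.43 and 7.22 against 7.86, 7.57 and 7.81. The groups of both did not overlap, and their differences of 0.37 ± 0.11 each fell just outside the threshold (limma adjusted p = 0.0543 and 0.0567). Of the fits without 1 array, Amot passed only without Cre-positive replicate 1 (0.43, limma adjusted p = 0.0485). Amotl2 passed only without Cre-positive replicate 2 (0.45, limma adjusted p = 0.0408). In the other such fits limma's adjusted p reached 0.164 for Amot and 0.1705 for Amotl2. Neither passed with sex as a second factor (limma adjusted p = 0.370 and 0.0850) or without replicate 2 of both groups (limma adjusted p = 0.221 and 0.0998). The difference of Amotl1 was 0.090 ± 0.09. That of Nf2, the tumour suppressor Merlin that recruits LATS kinases to the membrane, was -0.098 ± 0.10. The giant protocadherin Fat4 (0.15 ± 0.12) and its ligand Dchs1 (0.12 ± 0.11) did not pass, nor did Frmd6, a FERM-domain protein that acts upstream of LATS (0.076 ± 0.13). Their limma adjusted p-values ran from 0.436 to 0.736, and their 95% intervals reached no further than 0.43 above and 0.32 below 0.

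The kinase cassette showed 1 rise. Sav1, the scaffold that joins the MST kinases to LATS, was at 7.97, 7.88 and 8.04 in Cre-negative and at 8.73, 8.62 and 8.49 in Cre-positive arrays. The groups were well apart, with a rise of 1.57-fold (0.65 ± 0.10, limma adjusted p = 0.00276). The Sav1 call was kept without any 1 array but not with sex as a second factor (0.57, limma adjusted p = 0.0533) or without replicate 2 of both groups (0.60, limma adjusted p = 0.0540). The kinases themselves moved little. Lats1 was at 9.43, 9.51 and 9.44 against 9.46, 9.54 and 9.40, which overlapped almost entirely. Its difference was 0.0024 ± 0.08 with a 95% interval of -0.19 to 0.19. Lats2, a kinase that is also a known YAP target, was at 7.62, 7.67 and 7.56 against 7.62, 7.63 and 7.81, a difference of 0.067 ± 0.09 (95% interval -0.14 to 0.28). The differences were -0.0060 ± 0.09 for Stk4 (-0.22 to 0.21), 0.052 ± 0.13 for Mob1a (-0.25 to 0.35) and -0.12 ± 0.08 for Mob1b (-0.31 to 0.069). For these 5 genes limma's adjusted p was 0.365 to 0.989, and the intervals reached no further than 0.35 above and 0.31 below 0. The signs of the differences of Lats1 and Mob1a turned under median centring, and that of Stk4 with sex as a second factor.

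The co-activators and their DNA-binding partners differed from one another. Yap1 was at 8.93, 8.82 and 8.83 in Cre-negative and at 9.01, 8.91 and 8.73 in Cre-positive arrays. Its groups overlapped, with a difference of 0.024 ± 0.10 (95% interval -0.20 to 0.25, limma adjusted p = 0.902), and the sign turned under median centring. Wwtr1, which encodes TAZ, was at 9.21, 9.28 and 9.41 against 9.93, 9.80 and 9.78. Its groups did not overlap, and it rose 1.45-fold (0.54 ± 0.09, limma adjusted p = 0.00527). The 95% interval of Wwtr1, 0.32 to 0.75, lay above that of Yap1, although the difference between the 2 genes was not tested. The Wwtr1 call was kept without any 1 array and was lost with sex as a second factor (0.42, limma adjusted p = 0.0946) and without replicate 2 of both groups (0.54, limma adjusted p = 0.0693).

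Of the TEAD factors, Tead1, Tead2 and Tead3 rose and Tead4 did not pass. Tead1 was at 9.12, 8.98 and 9.13 against 9.81, 9.81 and 9.63, a rise of 1.59-fold (0.67 ± 0.09, limma adjusted p = 0.00208). Tead3 was at 7.52, 7.63 and 7.45 against 8.19, 8.21 and 8.12, a rise of 1.56-fold (0.64 ± 0.09, limma adjusted p = 0.00181). In both genes the Cre-positive arrays lay within 0.2 of one another and well above the Cre-negative arrays. Tead2 was at 6.22, 6.08 and 6.11 against 6.48, 6.76 and 6.72, with Cre-positive replicate 1 lowest of its group, and rose 1.43-fold (0.52 ± 0.10, limma adjusted p = 0.00964). Tead4 was at 6.78, 6.74 and 6.67 against 6.93, 6.78 and 6.95, where the groups overlapped (0.16 ± 0.09, 95% interval -0.048 to 0.36, limma adjusted p = 0.271). The calls of Tead1 and Tead3 were kept with sex as a second factor (limma adjusted p = 0.0422 and 0.0173) and without replicate 2 of both groups (limma adjusted p = 0.0462 and 0.0282). That of Tead2 was lost in both (limma adjusted p = 0.0820 and 0.123).

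Vestigial-like proteins bind TEAD factors in competition with YAP and TAZ. Vgll3 was at 6.87, 7.01 and 6.87 in Cre-negative and at 7.23, 7.62 and 8.11 in Cre-positive arrays. The Cre-positive arrays spread widely, from just above the Cre-negative ones to more than 1 log2 unit above them. Vgll3 rose 1.66-fold on average (0.73 ± 0.20, limma adjusted p = 0.0350), but not without Cre-negative replicate 1 (0.71, limma adjusted p = 0.105), 2 (0.78, limma adjusted p = 0.0703) or 3 (0.71, limma adjusted p = 0.0959), or when Cre-positive replicate 2 was left out (0.75, limma adjusted p = 0.0885). The Vgll3 call was also lost with sex as a second factor (limma adjusted p = 0.173) and without replicate 2 of both groups (limma adjusted p = 0.158). Vgll4 represses TEAD-driven transcription, and its difference was -0.12 ± 0.12 (limma adjusted p = 0.531) with a sign that turned with sex as a second factor.

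**Figure D1:**
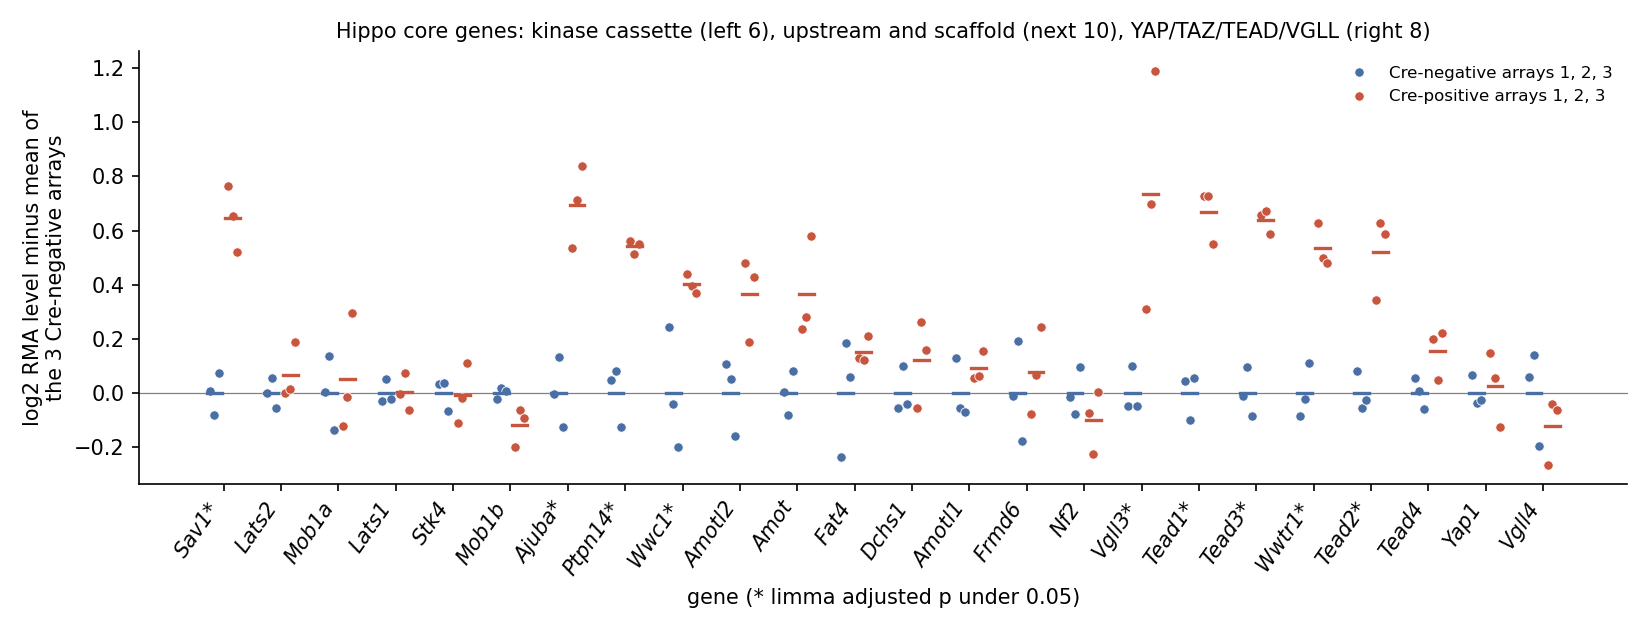
Level of 24 Hippo core genes in each array, as the log2 value minus the mean of the 3 Cre-negative arrays (vertical axis), with genes along the horizontal axis by role. Points are arrays 1, 2 and 3 from left to right, short lines are group means, and asterisks mark limma adjusted p under 0.05. Sav1, Ajuba, Ptpn14, Wwtr1, Tead1, Tead2, Tead3, Vgll3 and Wwc1 have separate groups. So do Amot, Amotl2 and, with lower Cre-positive values, Mob1b, which did not pass the test. Among others, Lats1, Stk4 and Yap1 overlap.

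The target genes gave the largest differences among the members. Ankrd1 encodes a stress-induced ankyrin repeat protein of striated muscle and other cells and is a classical YAP target. It was at 6.50, 6.46 and 6.31 in Cre-negative and at 7.91, 8.21 and 8.98 in Cre-positive arrays. The lowest Cre-positive array was more than 1 log2 unit above the highest Cre-negative one. Ankrd1 rose 3.85-fold (1.94 ± 0.24, 95% interval 1.38 to 2.51, limma adjusted p = 0.00134), and 72 of all 22180 genes had a larger difference. In Cre-positive replicate 2, the array with skeletal muscle transcripts, Ankrd1 was at 8.21. Without replicate 2 of both groups its difference was 2.04 (limma adjusted p = 0.0245). The part of muscle RNA in the rise of Ankrd1 was not tested.

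Ccn1 and Ccn2, also known as Cyr61 and CTGF, encode secreted matricellular proteins and are the most widely used readouts of YAP and TAZ. Ccn1 was at 9.06, 8.59 and 8.66 against 9.74, 10.11 and 10.38, and rose 2.48-fold (1.31 ± 0.19, limma adjusted p = 0.00225). Ccn2 was at 9.29, 8.96 and 9.17 against 10.34, 10.48 and 10.61, and rose 2.52-fold (1.34 ± 0.12, limma adjusted p = 0.000290). In both genes all Cre-positive arrays lay above all Cre-negative arrays, with Cre-positive replicate 1 lowest and replicate 3 highest of their group. A second, dimmer row annotated to Ccn2 did not move with the first: its mean over the 6 arrays was 5.74 and its difference -0.11 ± 0.12, in a fit of every row of the table. With the mean of both rows the difference of Ccn2 was 0.61, and it stayed past the threshold (limma adjusted p = 0.00215).

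Myof, the membrane repair protein myoferlin, was at 9.19, 9.15 and 8.83 against 10.30, 10.44 and 10.39. The rise was 2.50-fold (1.32 ± 0.12, limma adjusted p = 0.000303), with Cre-positive arrays within 0.2 of each other. Fjx1, a secreted homologue of the fly Fat-Dachsous regulator four-jointed, was at 6.20, 6.12 and 6.23 against 7.11, 7.26 and 7.23. It rose 2.02-fold (1.01 ± 0.09, limma adjusted p = 0.000258) with the smallest SE among the called targets. Axl, a receptor tyrosine kinase made by stromal cells and macrophages among others, was at 8.91, 8.93 and 8.82 against 9.58, 9.89 and 10.27. It rose 2.04-fold (1.03 ± 0.16, limma adjusted p = 0.00360), with a wide spread among the Cre-positive arrays. Asap1, an Arf GTPase-activating protein, was at 9.34, 9.26 and 9.27 against 9.55, 9.82 and 9.74, a rise of 1.33-fold (0.41 ± 0.10, limma adjusted p = 0.0195). The Asap1 call was lost without any 1 of the Cre-negative arrays (limma adjusted p = 0.0524, 0.0703 and 0.0640), and likewise when Cre-positive replicate 2 was left out (limma adjusted p = 0.0667).

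The other target genes did not pass. Arhgef17 had a difference of 0.30 ± 0.13 with overlapping groups (limma adjusted p = 0.139). Of the fits without 1 array, it passed only without Cre-positive replicate 3 (0.41, limma adjusted p = 0.0399). It did not pass with sex as a second factor (limma adjusted p = 0.149) or without replicate 2 of both groups (limma adjusted p = 0.390). Nuak2, a kinase of the AMPK family, had a difference of 0.29 ± 0.15 (limma adjusted p = 0.228). Crim1, a membrane protein that binds BMPs, was at 10.16, 9.997 and 9.91 against 10.12, 10.12 and 10.11, which overlapped (0.096 ± 0.09, 95% interval -0.12 to 0.31, limma adjusted p = 0.538). Dock5, an activator of Rac, was at 8.72, 8.72 and 8.75 against 8.71, 8.65 and 8.52. Its Cre-positive arrays were the lower ones by a small margin (-0.10 ± 0.09, 95% interval -0.30 to 0.098, limma adjusted p = 0.479). The intervals of Crim1 and Dock5 exclude a rise of the size measured in Ankrd1, Ccn1, Ccn2, Myof, Axl or Fjx1.

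With male arrays alone, 3 against 1, 1 core gene (Tead3) and 5 targets (Ankrd1, Ccn1, Ccn2, Myof and Fjx1) passed, beside 4.96% of all genes, and with the replicate number as a block 8 core genes and 6 targets, beside 17.9%. Of the 7 called targets, 6 were kept with sex as a second factor, all but Asap1 (limma adjusted p = 0.133), beside 9.15% of all genes called. The differences of those 6 then ran from 0.97 for Fjx1 to 2.05 for Ankrd1. Without replicate 2 of both groups 5 were kept, beside 8.35% of all genes called. Axl (1.06, limma adjusted p = 0.0504) and Asap1 (0.34, limma adjusted p = 0.185) were lost. Cre-positive replicate 1 was the lowest of its group for all 7 called targets. For the 9 called core genes it was the lowest in 3, and replicate 3 in 5.

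**Figure D2:**
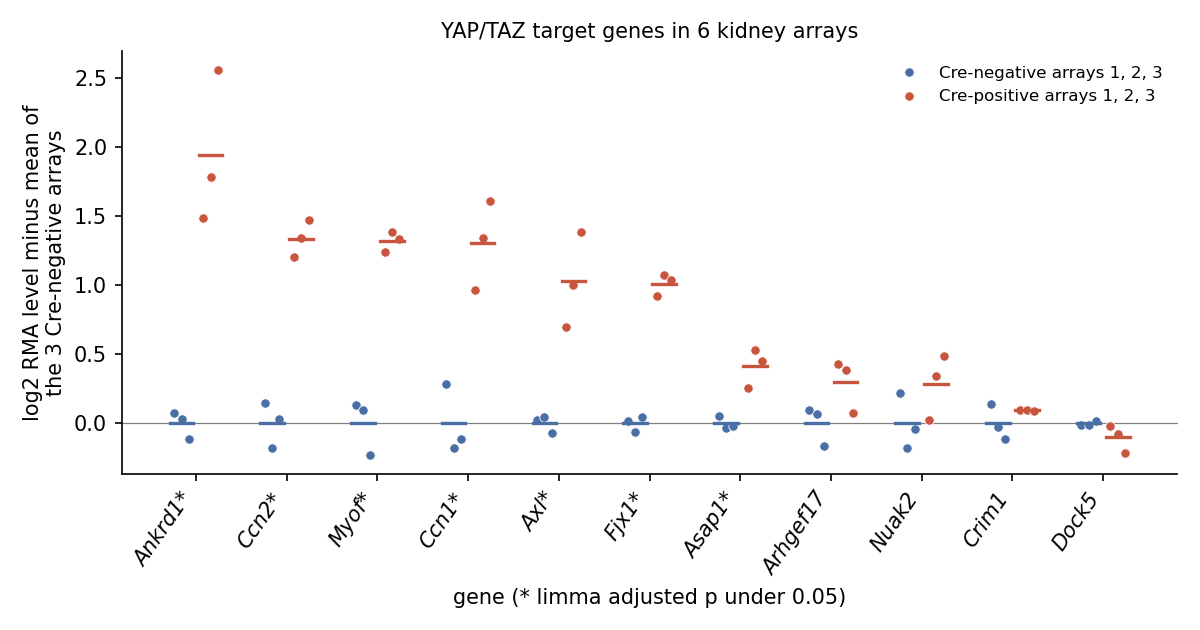
Level of 11 YAP/TAZ target genes in each array, as the log2 value minus the mean of the 3 Cre-negative arrays (vertical axis), with genes along the horizontal axis in order of their difference. Points are arrays 1, 2 and 3 from left to right, short lines are group means, and asterisks mark limma adjusted p under 0.05. Ankrd1, Ccn2, Myof, Ccn1, Axl and Fjx1 stand apart from the Cre-negative arrays, and Crim1 and Dock5 stay near 0.

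5 target genes had a promoter entry in RefSeq's table (GRCm38.p6): Ankrd1, Axl, Ccn1, Crim1 and Myof. The TEAD motif, GGAATG or CATTCC on the other strand, was searched in the 250 bases before the annotated start. It was present for 4 of these 5 targets, for 10 of the 21 core genes with an entry, and in 12.6% of all 32851 windows in the table. Members were counted by gene, with a match in any of their windows. The table was counted by window, and its windows belong to 27025 genes, so the shares are not of the same unit. The AP-1 motif, TGANTCA, which reads the same on both strands, was in none of the member windows and in 6.75% of all windows. The 4 windows below, given 5′ to 3′ on the gene's own strand with TEAD motifs in capitals, show that a match and a rise did not always go together. Ankrd1 (chr19:36119845-36120094, minus strand) holds the motif at 210 and at 123 bases before the start, and Ccn1 (chr3:145649986-145650235, minus strand) at 103 bases. Myof (chr19:38043578-38043827, minus strand) rose without a match in this window, and Crim1 (chr17:78199998-78200247, plus strand) has one at 79 bases and did not pass the test. A match is a description of letters, not of binding.
Ankrd1: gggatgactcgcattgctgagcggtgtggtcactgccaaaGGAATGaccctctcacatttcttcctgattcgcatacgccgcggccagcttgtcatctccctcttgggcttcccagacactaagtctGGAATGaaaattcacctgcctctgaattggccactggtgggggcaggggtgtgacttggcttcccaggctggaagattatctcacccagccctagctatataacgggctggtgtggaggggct
Ccn1: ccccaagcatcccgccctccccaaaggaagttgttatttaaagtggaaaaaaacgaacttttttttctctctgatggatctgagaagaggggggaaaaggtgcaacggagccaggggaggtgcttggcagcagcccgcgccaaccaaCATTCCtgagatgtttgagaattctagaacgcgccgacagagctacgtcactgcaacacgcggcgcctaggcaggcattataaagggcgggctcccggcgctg
Myof: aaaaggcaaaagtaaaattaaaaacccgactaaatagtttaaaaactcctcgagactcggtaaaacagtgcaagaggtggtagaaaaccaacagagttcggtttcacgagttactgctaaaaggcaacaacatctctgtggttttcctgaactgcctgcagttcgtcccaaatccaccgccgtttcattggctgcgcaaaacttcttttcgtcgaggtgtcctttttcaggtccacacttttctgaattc
Crim1: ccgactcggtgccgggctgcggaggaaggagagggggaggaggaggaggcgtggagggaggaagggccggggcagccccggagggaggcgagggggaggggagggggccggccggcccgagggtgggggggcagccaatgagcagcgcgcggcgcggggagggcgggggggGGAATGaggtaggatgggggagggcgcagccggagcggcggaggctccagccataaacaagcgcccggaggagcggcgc

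Of 43 listed Hippo regulators outside the members 37 were measured, of which 9 rose and 2 fell, a share of 29.7% beside the 21.8% of all genes. The median difference was 0.075. With sex as a second factor 5 of the 37 rose and none fell, beside 9.15% of all genes called. Without replicate 2 of both groups 4 of the 37 rose and none fell, beside 8.35%. Map4k4, a kinase that can activate LATS, rose from 8.28, 8.33 and 8.33 to 9.27, 9.23 and 9.22 (0.92 ± 0.08, limma adjusted p = 0.000248). The protocadherin Fat1 (0.85 ± 0.08, limma adjusted p = 0.000515) and the casein kinase Csnk1e, which marks YAP for degradation (0.94 ± 0.09, limma adjusted p = 0.000367), rose as well. The ubiquitin ligase Nedd4 rose (0.42 ± 0.08), and Btrc, the ligase subunit that recognises phosphorylated YAP, fell (-0.47 ± 0.09). Both calls were lost with sex as a second factor (limma adjusted p = 0.0650 and 0.101) and without replicate 2 of both groups (limma adjusted p = 0.0953 and 0.0986), where those of Map4k4, Fat1 and Csnk1e were kept. Limd1 (0.37 ± 0.08) and Wtip (0.46 ± 0.13), LIM proteins related to Ajuba, Tesk1 (0.30 ± 0.08), Rassf5 (0.37 ± 0.10) and Rassf6 (0.52 ± 0.12) also rose, and Mob4, of the phosphatase complex STRIPAK, fell (-0.41 ± 0.11). The calls of Limd1, Wtip, Tesk1, Rassf5, Rassf6 and Mob4 were each lost without at least 1 array, with limma adjusted p up to 0.0672 for Limd1 and 0.113 for Mob4 (Cre-negative replicate 2 left out), 0.106 for Rassf5 and 0.0656 for Rassf6 (Cre-negative replicate 1), 0.0987 for Wtip (Cre-positive replicate 2) and 0.0987 for Tesk1 (Cre-negative replicate 3). Without 1 array 4 to 9 of these genes were higher and 1 to 3 lower, with 4 higher when Cre-negative replicate 1 was left out, 5 for Cre-negative replicate 3 or Cre-positive replicate 2, and 3 lower for Cre-positive replicate 3.

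Among 12 further measured YAP/TAZ targets, of 14 listed, 4 rose and 2 fell. These are shares of 33.3% and 16.7%, beside 10.7% of all genes higher and 11.1% lower. Edn1, which encodes the vasoconstrictor endothelin-1, was at 6.37, 6.13 and 6.44 against 9.30, 9.44 and 9.30, a rise of 8.21-fold (3.04 ± 0.11, limma adjusted p = 1.63e-05). F3, tissue factor, rose 2.49-fold (1.32 ± 0.12, limma adjusted p = 0.000404), and the matrix gene Ccdc80 (0.94 ± 0.20) and Tgfb1i1, a focal adhesion protein (0.69 ± 0.16), rose too. Igfbp3, an IGF-binding protein, was at 10.88, 10.93 and 10.70 against 9.93, 9.48 and 9.88, a fall with separate groups (-1.08 ± 0.14, limma adjusted p = 0.00143). Cavin2, a component of caveolae, also fell (-0.42 ± 0.08). Tgfb2, Gadd45b, Rbms3, Birc5, Foxf2 and Nt5e did not pass with all 6 arrays (limma adjusted p = 0.0721 to 0.841). With sex as a second factor Tgfb2 was higher (1.17, limma adjusted p = 0.0234) and Nt5e lower (-0.76, limma adjusted p = 0.0173). Gadd45b was higher without replicate 2 of both groups (1.01, limma adjusted p = 0.0114). The calls of Ccdc80 and Tgfb1i1 were lost without Cre-negative replicate 1 (limma adjusted p = 0.0502 and 0.0703), which left 2 higher and 2 lower genes. With sex as a second factor 3 were higher and 2 lower, beside 9.15% of all genes called. Without replicate 2 of both groups 3 were higher and 1 lower, beside 8.35%. The calls of Edn1, F3 and Igfbp3 were kept in both refits, and those of Ccdc80, Tgfb1i1 and Cavin2 were lost in both.

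Markers of other cell types and states moved in the same arrays. Macrophage markers rose in 9 of 10 genes (6 to 9 without 1 array, with 6 when replicate 2 of either group was left out, 5 with sex as a second factor and 5 without replicate 2 of both groups). Their mean log2 level was 7.16 to 7.30 in Cre-negative and 8.39 to 9.40 in Cre-positive arrays. Fibroblast markers rose in 7 of 10 genes (4 when Cre-negative replicate 1 was left out, 9 when Cre-positive replicate 1 was), but in 1 with sex as a second factor and in 1 without replicate 2 of both groups, with mean levels of 8.80 to 8.88 and 9.21 to 10.2. All 6 injured tubule markers rose, also in both of these refits, with mean levels of 6.67 to 6.91 and 9.76 to 10.13. Of the endothelial markers 5 of 8 fell (3 without any 1 Cre-negative array or Cre-positive replicate 2, 2 in either refit), with mean levels of 9.49 to 9.55 and 8.80 to 9.10. Podocyte markers fell in 4 of 5 genes (3 in either refit) and proximal tubule markers in 9 of 10 (9 with sex as a second factor, 8 without replicate 2 of both groups). Distal convoluted tubule markers fell in 4 of 4 genes, but in 0 with sex as a second factor and in 2 without replicate 2 of both groups, and in 2 without Cre-negative replicate 1 or 2 or Cre-positive replicate 1 or 3. Principal cell markers of the collecting duct rose in 3 of 6 genes, in 2 with sex as a second factor and in 0 without replicate 2 of both groups, and in 1 without Cre-negative replicate 3 or Cre-positive replicate 2. Intercalated cell markers fell in 3 of 5 genes, in 0 with sex as a second factor and in 2 without replicate 2 of both groups. Of 6 thick ascending limb markers 1 rose and 3 fell, and 0 rose and 2 fell in either refit. Among 5 cardiac muscle markers only Tnnt2 rose (1.02 ± 0.14), also in both refits. No proliferation marker of 5 passed limma's test, and at an unadjusted p under 0.05 none was higher or lower. In Cre-positive replicates 1, 2 and 3 the median rise over Cre-negative was 1.17, 1.67 and 2.40 for macrophage markers, 0.45, 0.77 and 1.42 for fibroblast markers and 0.70, 1.01 and 1.04 for the 11 targets. Replicate 1, the lowest array for all 7 called targets, was also the lowest for the macrophage and fibroblast lists. For the principal cell markers it was the highest, at 0.70 against 0.51 and 0.24 in replicates 2 and 3. The injured tubule markers were at 2.93, 3.46 and 2.91 in these arrays. The part of these cell types in the rise of the targets and of Wwtr1, Tead1, Tead2 and Tead3 was not tested.

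**Figure D3:**
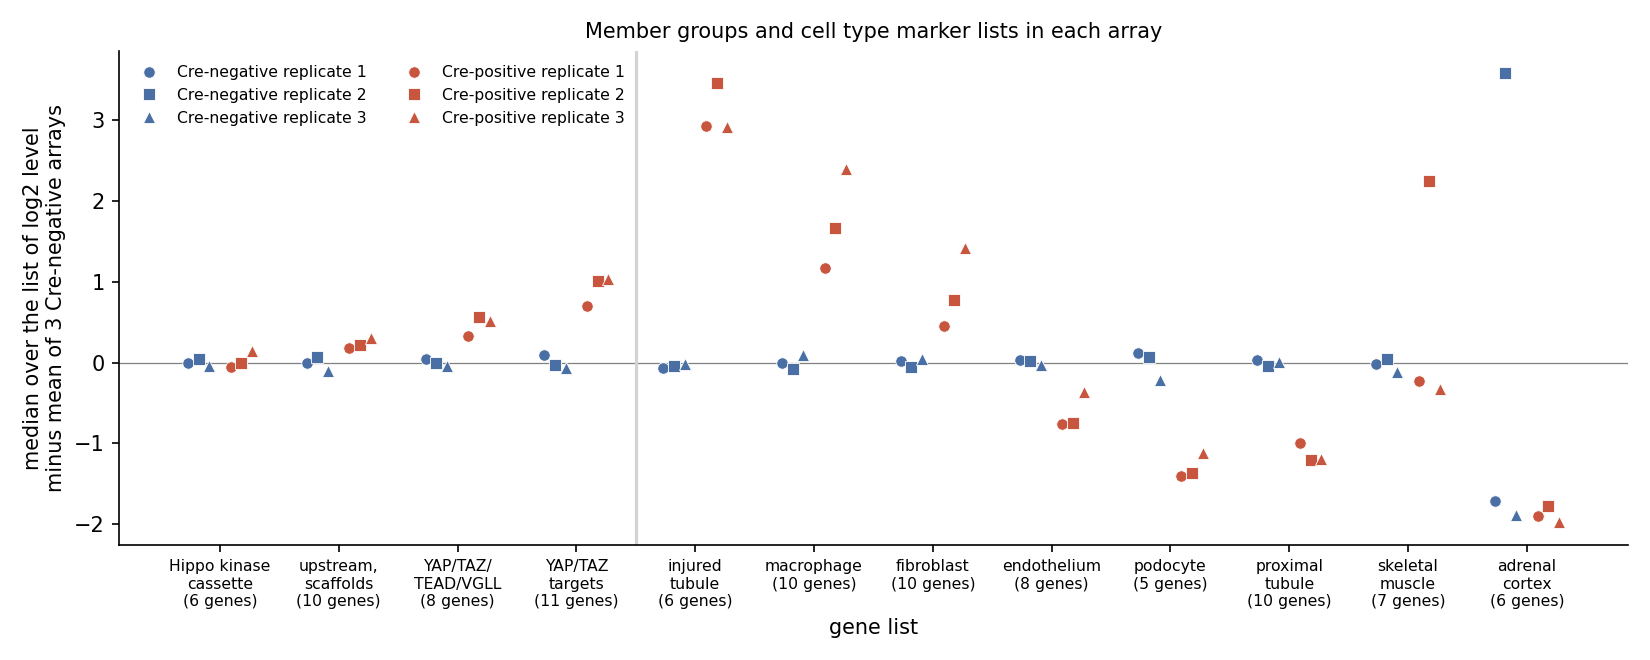
Median over each gene list of the log2 level minus the mean of the 3 Cre-negative arrays (vertical axis), for the 4 groups of members and for cell type markers (horizontal axis), with a symbol for each array. The Cre-positive arrays lie at 0.70 to 1.04 for the targets and near 0 for the kinase cassette, and adrenal markers stand out in Cre-negative replicate 2, which raises the zero line of that list.

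**Figure D4:**
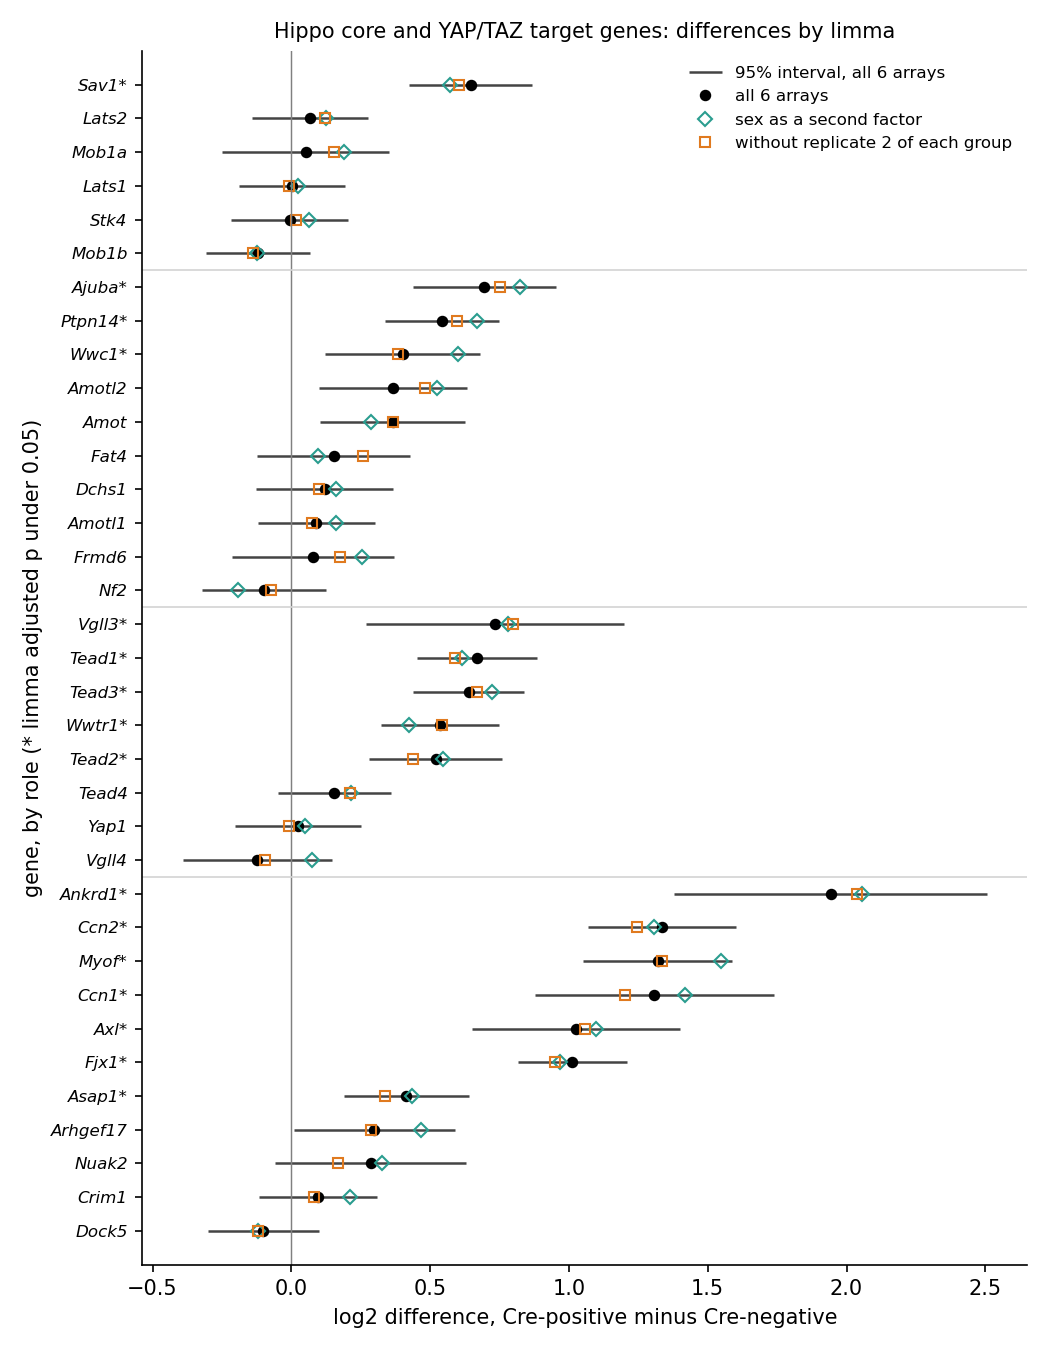
Log2 difference, Cre-positive minus Cre-negative (horizontal axis), of all 35 measured members by role (vertical axis: kinase cassette, upstream regulators, co-activators and TEAD partners, targets from top to bottom). Filled circles with 95% intervals are from all 6 arrays, diamonds have sex as a second factor, squares leave out replicate 2 of each group, and asterisks mark limma adjusted p under 0.05 with all arrays. Ankrd1, Ccn1, Ccn2, Myof, Axl and Fjx1 lie near or above 1 with each symbol.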

How the data were processed

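Total RNA of 6 mouse kidney samples was labelled with biotin by Affymetrix's WT Plus protocol for arrays, per the labels. The authors deposited log2 values after RMA, which by definition corrects background, quantile-normalizes and summarises probes. Per the submitters' processing notes the tools were RMA and Partek. The sources used here do not give their versions or the probe annotation. The log2 scale was read from RMA's convention and the range, 1.89 to 13.6. RMA compresses differences of dim rows. Array medians were 5.55 to 5.64, and other samples' columns numbered 0.

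Of 41345 rows 23521 carried exactly 1 symbol, giving 22180 genes, 1082 of them with several rows (the brightest kept). All genes entered the test, bright or dim. The comparison between groups used R 4.3.3 and limma 3.58.1 (lmFit, eBayes, two-sided, no covariate, Benjamini-Hochberg over all genes, threshold 0.05), after a test on simulated data. Tables, motif searches and figures used Python 3.11.15, pandas 2.3.3 and matplotlib 3.10.9. Every member was named, as were other listed pathway genes past the threshold, further YAP/TAZ targets, Mpp5 and genes that check the arrays. Members and lists were chosen with earlier results of these data known, as were the alternatives: normalization, filter, variance model, array weights, rows per gene, threshold, replicate block, sex, and arrays left out. Same-numbered arrays did not deviate together (r = 0.03, -0.04 and -0.01 over genes).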

Additional observations from a re-analysis of the deposited data

How the results depend on the processing

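No member that was called changed direction under any alternative run, and 6 of the 16 calls (Tead3, Ankrd1, Fjx1, Myof, Ccn1 and Ccn2) were kept under all 17 refits of the genes. Counts of members lower were 0 throughout. Leaving out 1 array gave 7 to 9 core and 6 to 8 target genes higher, median differences of 0.12 to 0.21 and 0.85 to 1.06, and 1481 to 2270 genes of the table higher and 1660 to 2615 lower (1481 without Cre-negative replicate 1). Core genes higher were 4 with the sex term, 1 with male arrays alone (3 against 1, the lone array assumed to vary like the others) and 4 without replicate 2 of both groups. The table then held 909 higher and 1121 lower, 510 and 591, and 879 and 974 genes. At a threshold of 0.01 it held 1180 and 1336. The core median was 0.082 after a second quantile normalization, 0.092 after median centring, 0.23 with the sex term and with male arrays alone, and 0.24 without replicate 2 of both groups. The target median was 0.61 when all rows of each gene were averaged and 0.48 with Lats2, Amotl2 and Ptpn14 counted as targets.

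With the replicate number as a block, 8 core and 6 target genes were higher and 17.9% of all genes were called; Wwc1 and Asap1 were lost. The numbers did not pair the arrays.

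Differences near 0 that changed sign, none called, were those of Lats1 (-0.059), Mob1a (-0.010) and Yap1 (-0.038) under median centring, Yap1 (-0.063) with rows averaged, Stk4 (0.063) and Vgll4 (0.074) with the sex term and male arrays alone, and Stk4 (0.018), Lats1 (-0.0086) and Yap1 (-0.0098) without replicate 2 of both groups. With 1 array left out, Stk4 ran from -0.065 to 0.046, Lats1 from -0.034 to 0.036, Mob1a from -0.069 to 0.14, Frmd6 from -0.013 to 0.17 and Yap1 from -0.038 to 0.10. Values of dim rows are compressed, and Y-linked genes stood at 3.66 to 4.54 where absent. Every kept member row lay above this range. So did the second Ccn2 row, with a mean of 5.74, which did not move with the first. A level above this range therefore does not show that a row reads its gene.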
